A study of Mus musculus with 4 samples.

Results

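Crypt base stem cell genes are here 7 mouse genes expressed in the stem cells at the bottom of the intestinal crypt: Lgr4, Lgr5, Ascl2, Smoc2, Tnfrsf19, Olfm4 and Rgmb. Lgr4 was not confined to such cells and was also counted in goblet cells and enterocytes. The 7 genes were chosen by name, and all 7 were found among the 27514 genes that the gene tables of the 4 libraries share. Droplet single-cell RNA sequencing was used on dissociated adenomas of the small intestine from 11-week-old C57BL/6 mice, labelled male. The ApcMin group carried ApcMin/+ with intact Lef1 (Lef1 +/+), and the VApcMinL group carried ApcMin/+ with Lef1 fl/fl and Villin-Cre, so the truncating Apc allele was common to both groups. Villin-Cre acts in epithelial cells from development onward, so cells of the tumor stroma keep Lef1. Each group had 2 libraries, each from 3 to 10 unsorted tumors (the labels give this range and no count per library). Both replicate 1 libraries came from the version 2 chemistry of 10x Genomics (kit 2) and both replicate 2 libraries from version 3 (kit 3). The labels do not say which tumors or animals a library holds. P-values thus rest on the spread between these libraries, which the test shares in part over genes.

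In the healthy crypt, Wnt ligands and R-spondins from the niche keep stem cells dividing. R-spondins bind Lgr4 and Lgr5 and hold back the ubiquitin ligases Rnf43 and Znrf3, which otherwise clear Wnt receptors from the cell surface. Ascl2 is a transcription factor of the stem cell program that Wnt signaling induces. Loss of Apc keeps β-catenin active without ligand, and β-catenin acts on DNA through Tcf and Lef factors.

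A level is given in CPM, the UMIs (unique molecular identifiers, that is, counted RNA molecules) of a gene per 1000000 UMIs of a group of cells in 1 library. A total of 11021 cells with at least 2000 UMIs and at most 20% mitochondrial UMIs was analysed. Cells were gated by marker genes, none of which is among the 7 genes. Adenoma-gated cells were epithelial cells with UMIs of at least 2 of 11 Wnt target and adenoma genes such as Notum, Wif1 and Nkd1. Crypt-gated cells had crypt and proliferation genes and at most 1 adenoma gene, and enterocyte-gated cells had genes of the absorptive villus cell. Every set of 4 values below gives the kit 2 pair and then the kit 3 pair, with ApcMin before VApcMinL in each. In this order there were 576, 571, 354 and 2194 adenoma-gated cells. The crypt gate held 306, 301, 154 and 273 cells in the same order, and the enterocyte gate 277, 580, 876 and 573. A crypt-gated cell is a cell of the tumor sample without the adenoma genes, and whether it came from adjoining normal mucosa was not measured.

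The libraries differed in ways that touch the results. Total UMIs ran from 44660305 to 128247396 per library. The mitochondrial limit removed 61.6% of the barcodes of the library labelled ApcMin replicate 2 and 20.4% to 26.5% of those of the other 3. The gene tables of kit 2 list 27998 genes and those of kit 3 list 31053. Lef1 itself in adenoma-gated cells was 9.40, 27.8, 34.6 and 22.3 CPM, so the library labelled VApcMinL replicate 1 was above its ApcMin partner of the same kit, against its label. A UMI taken at the 3′ end can still come from a Lef1 transcript that lacks an internal exon, so this level does not settle whether Lef1 was deleted. All animals are labelled male, but Xist without any Y-linked UMI was found in 564 of 571 adenoma-gated cells of VApcMinL replicate 1 and in 580 of 2194 of VApcMinL replicate 2. No such cell was found in either ApcMin library. Between the 2 kit 2 libraries 9 cell barcodes were shared, 1 was shared by ApcMin replicate 1 and VApcMinL replicate 2, and no other pair shared any.

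Start regions are shown for the 3 genes that were higher in adenoma-gated than in crypt-gated cells (Tnfrsf19, Ascl2 and Lgr4) and for Olfm4, the gene with the largest fall, since Tcf and Lef factors act through DNA motifs near their targets. The RefSeq table (GRCm38.p6) held 8 start regions for 5 of the 7 genes, namely Lgr4, Ascl2, Olfm4, Tnfrsf19 (2 start sites) and Rgmb (3 start sites). Each runs from 250 bases before to 50 bases after the start of the transcript and is printed 5′ to 3′ on the strand of the gene. The RefSeq start of Olfm4 lies inside the longer gene model whose position is given below. Capitals mark the letters CTTTGAT or CTTTGAA (the core read by Tcf and Lef factors) or CAGCTG (an E-box of the kind that Ascl2-type factors read), searched on both strands. The 2 Tnfrsf19 regions come first because one of them holds both motifs.
Tnfrsf19, inner start site, chr14:61037938-61038237, minus strand: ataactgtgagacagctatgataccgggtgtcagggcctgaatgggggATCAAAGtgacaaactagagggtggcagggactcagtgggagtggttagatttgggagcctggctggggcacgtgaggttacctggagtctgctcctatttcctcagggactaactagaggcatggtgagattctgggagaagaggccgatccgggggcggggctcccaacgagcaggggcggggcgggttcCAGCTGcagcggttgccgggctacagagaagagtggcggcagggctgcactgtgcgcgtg
Tnfrsf19, outer start site, chr14:61046806-61047105, minus strand: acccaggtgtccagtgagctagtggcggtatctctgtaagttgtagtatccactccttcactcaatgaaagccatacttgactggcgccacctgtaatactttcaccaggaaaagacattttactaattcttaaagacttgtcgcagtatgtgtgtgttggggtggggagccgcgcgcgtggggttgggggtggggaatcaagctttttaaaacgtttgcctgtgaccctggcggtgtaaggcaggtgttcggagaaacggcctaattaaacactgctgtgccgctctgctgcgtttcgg
Ascl2, chr7:142969215-142969514, minus strand: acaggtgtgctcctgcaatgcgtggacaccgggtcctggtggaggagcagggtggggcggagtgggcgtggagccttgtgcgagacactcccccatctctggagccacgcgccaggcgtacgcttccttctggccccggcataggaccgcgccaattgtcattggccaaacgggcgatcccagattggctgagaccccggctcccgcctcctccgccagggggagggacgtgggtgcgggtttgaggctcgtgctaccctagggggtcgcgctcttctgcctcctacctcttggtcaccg
Lgr4, chr2:109917397-109917696, plus strand: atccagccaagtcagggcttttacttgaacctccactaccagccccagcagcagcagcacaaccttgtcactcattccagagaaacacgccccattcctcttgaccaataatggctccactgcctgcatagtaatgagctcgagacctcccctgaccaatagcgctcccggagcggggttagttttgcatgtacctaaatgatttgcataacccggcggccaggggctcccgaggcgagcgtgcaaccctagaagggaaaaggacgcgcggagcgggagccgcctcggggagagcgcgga
Olfm4, chr14:80000052-80000351, plus strand: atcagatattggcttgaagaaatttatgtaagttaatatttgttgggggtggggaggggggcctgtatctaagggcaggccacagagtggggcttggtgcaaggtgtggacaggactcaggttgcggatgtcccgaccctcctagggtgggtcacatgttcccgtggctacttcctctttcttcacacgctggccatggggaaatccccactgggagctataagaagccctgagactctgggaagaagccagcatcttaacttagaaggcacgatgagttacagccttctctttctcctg

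Of the 8 start regions, 1 held CTTTGAT, the inner start region of Tnfrsf19, where the motif lies on the opposite strand and begins 202 bases before the start site. CTTTGAA was found in 0 of 8. Among all 32851 start regions of the table, 8.65% held at least one of the Tcf and Lef letters. CAGCTG was found in the same Tnfrsf19 region, 10 bases before the start site, and in 16.3% of all start regions. The motifs did not overlap each other. The search covers these 300 bases only.

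The first comparison asked how adenoma-gated cells differ from crypt-gated cells of the same tumor samples in these genes. The gates themselves separate cells by Wnt target genes, which had to be nearly absent in the crypt gate. Differences in other Wnt-induced genes, such as Ascl2 and Tnfrsf19, are thus not independent of the gates. How far the gates set these differences was not tested. Lgr4, Ascl2 and Tnfrsf19 were higher in adenoma-gated cells in all 4 libraries, Smoc2, Rgmb and Olfm4 were lower in all 4, and Lgr5 was higher in 3 of 4 without passing the test. The 7 genes thus split into 3 that rose, 3 that fell and 1 that was not called (edgeR quasi-likelihood test with the library as a block, Benjamini-Hochberg adjusted p under 0.05). Changes were common in this comparison. Of 12699 genes tested, 56.7% were called, 31.5% higher and 25.2% lower, and the 7 genes all passed the expression filter. The median log2 difference was 0.88 over the 7 genes and 0.05 over all genes tested.

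**Figure D1:**
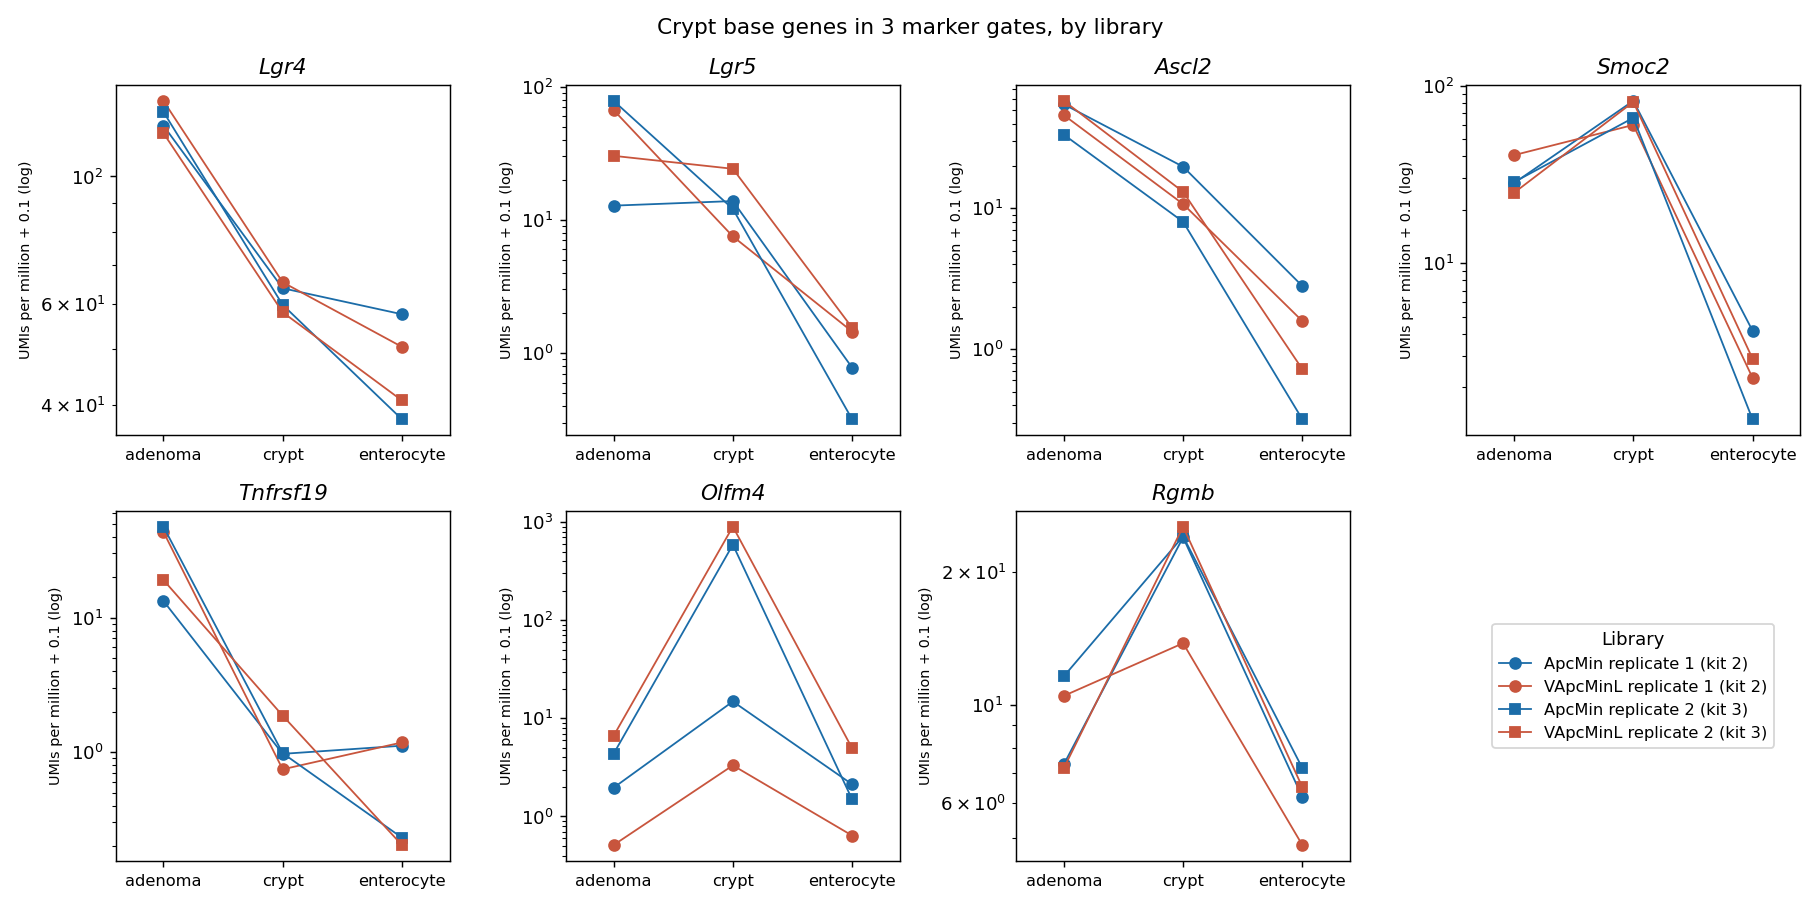
Level of each of the 7 genes (CPM plus 0.1, logarithmic axis) in adenoma-, crypt- and enterocyte-gated cells, with 1 line per library, colors for genotype and marker shapes for replicate and kit. Lgr4, Ascl2 and Tnfrsf19 fall from adenoma to crypt in every library, Smoc2, Rgmb and Olfm4 peak in the crypt gate, and the lines of Lgr5 cross.

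Lgr4 and Lgr5 are the receptors of R-spondins. Lgr4 (ENSMUSG00000050199, chr2:109917647-110014257, GRCm38, plus strand) was 123, 135, 129 and 119 CPM in adenoma-gated cells and 63.8, 65.4, 59.7 and 57.9 in crypt-gated cells. The lowest adenoma value was well above the highest crypt value, and the spread within each gate was small. The log2 difference was 0.88 ± 0.07 (SE, n = 4 libraries, edgeR adjusted p = 3.4e-05), which is 1.85-fold.

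Lgr5 (ENSMUSG00000020140, chr10:115450311-115587780, minus strand), the classical marker of the dividing crypt stem cell, was 12.7, 66.6, 78.2 and 30.1 CPM in adenoma-gated cells. In crypt-gated cells it was 13.7, 7.40, 12 and 24.1. The adenoma levels spanned a wide range, and the libraries labelled ApcMin replicate 1 and VApcMinL replicate 2 lay close to their crypt levels while the others were far above them. Within-library log2 differences, without further scaling, were -0.11, 3.13, 2.69 and 0.32. The fitted difference was 1.33 ± 0.50 (SE, n = 4) with an edgeR adjusted p of 0.0512, just outside the threshold. Over 17 alternative settings the adjusted p ran from 0.0108 to 0.204, and 10 of them passed. It was called without ApcMin replicate 1 (log2 1.74, adjusted p = 0.0201) or without VApcMinL replicate 2 (log2 1.82, adjusted p = 0.0273), the libraries with the smallest differences. Without VApcMinL replicate 1 it was 0.80 (adjusted p = 0.176), and without ApcMin replicate 2 it was 0.91 (adjusted p = 0.204). A gene on the opposite strand, A930009A15Rik, overlaps Lgr5 and is listed in all tables.

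Tnfrsf19, also known as Troy, is a receptor of the tumor necrosis factor receptor family and a Wnt target found in crypt stem cells. It showed the largest rise of the 7. The gene (ENSMUSG00000060548, chr14:60963875-61046490, minus strand) was 13.2, 43.3, 47.4 and 18.9 CPM in adenoma-gated cells against 0.869, 0.644, 0.880 and 1.77 in crypt-gated cells. The groups were far apart in every library, although crypt sums rested on only 5, 4, 5 and 11 UMIs. The log2 difference was 4.63 ± 0.33 (SE, n = 4, edgeR adjusted p = 1.9e-05). As for Lgr5, the lowest adenoma levels were those of ApcMin replicate 1 and VApcMinL replicate 2. A lincRNA on the opposite strand, Gm41168, overlaps the 5′ part of the gene and is listed in the kit 3 tables only.

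Ascl2 (ENSMUSG00000009248, chr7:142966829-142969264, minus strand), the stem cell transcription factor, was 54.7, 45.8, 33.2 and 57.8 CPM in adenoma-gated cells and 19.6, 10.6, 7.92 and 13 in crypt-gated cells. All adenoma levels exceeded all crypt levels. The log2 difference was 1.78 ± 0.13 (SE, n = 4, edgeR adjusted p = 1.87e-05), or 3.45-fold. The adenoma levels of Ascl2 did not follow those of Lgr5: Ascl2 was lowest in ApcMin replicate 2, where Lgr5 was highest.

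Smoc2, a secreted calcium-binding matrix protein, and Rgmb, a membrane-anchored co-receptor of bone morphogenetic proteins, went the other way. Smoc2 (ENSMUSG00000023886, chr17:14279506-14404790, plus strand) was 28.1, 40.4, 28.5 and 24.8 CPM in adenoma-gated and 81.9, 59.9, 65.7 and 80.7 in crypt-gated cells. The highest adenoma value lay below the lowest crypt value. The log2 difference was -1.42 ± 0.17 (SE, n = 4, edgeR adjusted p = 0.000202). Rgmb (ENSMUSG00000048027, chr17:15803188-15831039, minus strand) was 7.24, 10.4, 11.5 and 7.09 CPM in adenoma-gated against 23.8, 13.7, 23.9 and 25.2 in crypt-gated cells. The groups did not overlap, and the gap was smallest in VApcMinL replicate 1. The log2 difference was -1.43 ± 0.22 (SE, n = 4, edgeR adjusted p = 0.000799).

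Olfm4, a secreted olfactomedin glycoprotein that is abundant in crypt stem cells, showed the largest fall and the largest difference between kits. The gene (ENSMUSG00000022026, chr14:79984081-80023139, plus strand) was 1.86, 0.412, 4.26 and 6.54 CPM in adenoma-gated cells and 14.8, 3.22, 590 and 901 in crypt-gated cells. It was lower in adenoma-gated cells in all 4 libraries, but the crypt levels of the kit 2 libraries were a small fraction of those of kit 3. The log2 difference was -6.60 ± 0.69 (SE, n = 4, edgeR adjusted p = 0.000113). Within kit 2 alone it was -3.10 (edgeR adjusted p = 0.00245) and within kit 3 alone -7.30 (adjusted p = 1.1e-05). B-lineage cells held 2.12 to 14.7 CPM of Olfm4 over the libraries. The kit 2 crypt levels of 14.8 and 3.22 were thus not clearly above background. The kit, the gene annotation and the tumors all differ between the kit pairs and cannot be told apart here. A lincRNA on the same strand, Gm6999, overlaps the first part of Olfm4, is listed in both tables and had 0 UMIs in the adenoma, crypt and enterocyte gates of every library. In kit 3, where the gene was well counted, Olfm4 in adenoma-gated cells (4.26 and 6.54) did not exceed its level in T-lineage cells (11.0 and 9.66, from 2 and 3 UMIs) or in barcodes of at most 50 UMIs (34.4 and 61.9), which hold mostly free RNA. Taken over all adenoma-gated cells, Olfm4 was thus not above this background. In ApcMin replicate 2 it was 7.06 CPM in dividing cells (defined below by proliferation genes) and 0.932 in other adenoma-gated cells. In VApcMinL replicate 2 these levels were 6.61 and 6.46, so the split was not common to the kit 3 libraries.

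TMM scaling, which the test uses, lowered the log2 differences of this comparison by a median of 0.15 relative to scaling by total UMIs. With total UMIs the 6 called genes remained called in the same directions, and Lgr5 was called too (log2 1.48, adjusted p = 0.0395). Over all genes that scaling called 5023 higher and 2370 lower, against 3999 and 3196 with TMM. Median depth was 20638, 18384, 34294 and 24974 UMIs per adenoma-gated cell and 17503, 17693, 33233 and 19653 per crypt-gated cell.

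A share of cells at equal depth does not depend on a few cells with many UMIs. Every cell was therefore thinned to 2000 UMIs, and the cells with at least 1 UMI were counted. Lgr4 was found in 21.5%, 24.0%, 19.5% and 21.8% of adenoma-gated cells and in 14.4%, 12.6%, 15.6% and 10.3% of crypt-gated cells. Lgr5 was found in 2.60%, 11.9%, 11.9% and 6.43% of adenoma-gated and in 2.94%, 1.33%, 3.25% and 5.49% of crypt-gated cells. The share of Lgr5 cells thus exceeded the crypt share clearly in VApcMinL replicate 1 and ApcMin replicate 2 only. Ascl2 was found in 7.34% to 10.5% of adenoma-gated and 1.30% to 3.66% of crypt-gated cells. Tnfrsf19 was found in 3.30% to 8.23% against at most 0.332%, with 0 of 154 crypt-gated cells in ApcMin replicate 2 and 0 of 273 in VApcMinL replicate 2, which allow shares of cells with a UMI of up to 1.95% and 1.1%. Smoc2 had 4.24% to 7.53% against 11.0% to 17.3%, and Rgmb 1.37% to 2.82% against 2.33% to 4.90%.

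For Olfm4 in kit 3, 29.2% (95% exact binomial interval 22.2 to 37.1, ApcMin replicate 2) and 34.4% (28.8 to 40.4, VApcMinL replicate 2) of crypt-gated cells were positive at this depth, against 0.282% and 0.957% of adenoma-gated cells. In kit 2 the crypt shares were 2.29% and 1.33%. Among T- and B-lineage cells, which should lack these genes, Lgr4 was found in 1.33% to 3.1%, Olfm4 in 0% to 2.82%, Ascl2 in 0% to 1.5%, and Lgr5, Smoc2 and Rgmb in at most 0.845%. Tnfrsf19 was found in none of these cells in any library. The adenoma shares of Olfm4 lie in the range of these T- and B-lineage shares, and so do its kit 2 crypt shares. With 4 libraries the smallest p of the two-sided exact permutation test by sign is 0.13, which was reached against crypt-gated cells by all genes but Lgr5 (exact p = 0.25). Against enterocyte-gated cells, where the mean shares were 8.04% for Lgr4, 0.264% for Lgr5, 0.496% for Olfm4 and 1.28% for Rgmb, it was reached by all but Rgmb (exact p = 0.25) and Olfm4 (exact p = 0.875). After adjustment over these 14 comparisons the smallest p was 0.159.

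**Figure D2:**
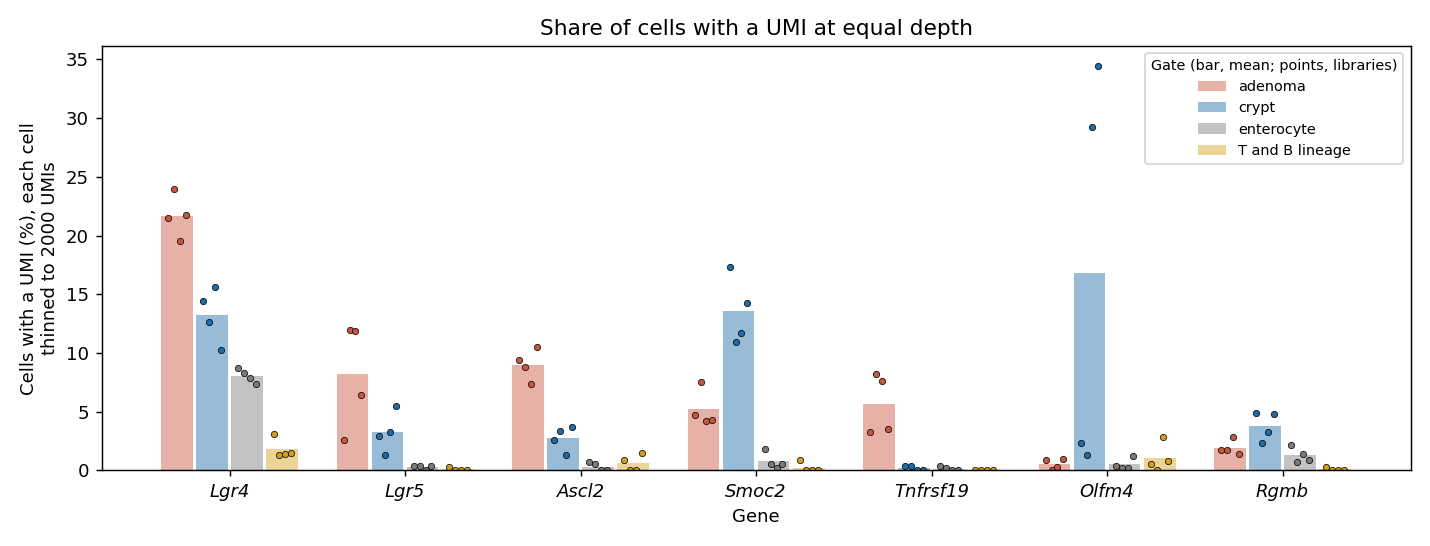
Share of cells with at least 1 UMI (%) after every cell was thinned to 2000 UMIs, for each gene and 4 gates, with bars for the mean and points for the 4 libraries. The Olfm4 points of the crypt gate fall into a kit 2 pair at 2.29% and 1.33% and a kit 3 pair at 29.2% and 34.4%.

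Against enterocyte-gated cells, which have left the crypt, adenoma-gated cells were higher in Lgr4, Lgr5, Ascl2, Smoc2 and Tnfrsf19, while Olfm4 and Rgmb did not pass the test. Of 13228 genes tested, 77.1% were called and 42.4% were called higher. Lgr5 in enterocyte-gated cells was 0.676, 1.35, 0.218 and 1.45 CPM, and the log2 difference was 5.30 ± 0.47 (SE, n = 4, edgeR adjusted p = 2.52e-06). Lgr5 was above its enterocyte level in every library, unlike the comparison with crypt-gated cells. Ascl2 differed by 5.11 ± 0.32 (adjusted p = 1.89e-07) and Tnfrsf19 by 5.81 ± 0.44 (adjusted p = 7.44e-07). Smoc2, lower than in crypt cells, was still 3.08 ± 0.25 log2 units above enterocytes (adjusted p = 1.14e-06). Lgr4 persisted in enterocyte-gated cells at 57.5, 50.4, 37.7 and 40.7 CPM, so its difference was only 0.81 ± 0.12 (adjusted p = 0.000131).

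Rgmb was 6.09, 4.72, 7.09 and 6.41 CPM in enterocyte-gated cells, below its adenoma level in every library, by the most in VApcMinL replicate 1 and the least in VApcMinL replicate 2. Its fitted difference was -0.12 ± 0.21 (edgeR adjusted p = 0.61), and Olfm4 differed by -0.03 ± 0.33 (adjusted p = 0.928). These signs depend on scaling, because TMM lowered the differences of this comparison by a median of 0.67. With total UMIs Rgmb was higher in adenoma-gated cells (log2 0.57, adjusted p = 0.0389) and Olfm4 was at 0.66 (adjusted p = 0.128). The other 5 genes kept direction and call under that scaling, which called 7851 genes higher and 2856 lower against 5608 and 4596 with TMM.

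Across all marker gates, the 7 genes had distinct ranges, described here over libraries with at least 20 cells in a gate. Lgr4 was highest in adenoma-gated cells (mean 127 ± 7.29 SD CPM, n = 4), followed by Paneth-gated cells at 120 ± 15.6 (n = 3), whose ranges overlap. Its next gates, the other epithelial cells (68.6 ± 12.7), crypt (61.7 ± 3.46) and goblet cells (55.5 ± 4.52), were not separated by their spread. T-lineage cells held 2.3 to 6.44 CPM. Lgr5 had wide and overlapping ranges in Paneth-gated (57.1 ± 38.7, n = 3) and adenoma-gated cells (46.9 ± 30.7, n = 4), as had Ascl2 (50.3 ± 15.0 and 47.9 ± 11.0). In the crypt gate the means were 14.3 ± 7.04 for Lgr5, whose range overlapped that of the adenoma gate, and 12.8 ± 5.01 for Ascl2, whose range lay below it.

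Tnfrsf19 was highest in adenoma-gated cells (30.7 ± 17.1, n = 4), above the Paneth gate (14.3 ± 7.37, n = 3), though these ranges overlap. Smoc2 was highest outside the epithelium, in fibroblast-gated cells at 196, 271, 317 and 183 CPM, above its crypt level in every library. Olfm4 followed the crypt, Paneth and goblet gates, with 505 and 340 CPM in the Paneth gate and 125 and 149 in the goblet gate of kit 3. Rgmb had its highest mean in the crypt gate (21.7 ± 5.35, n = 4), with 21.5 in the enteroendocrine gate of 1 library. It was also counted in goblet, Paneth, myeloid and endothelial cells at 13.6 to 14.7 CPM on average, with ranges that overlap that of the crypt gate.

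Tuft cells, rare chemosensory epithelial cells, stood out for 3 of the genes. The only library with at least 20 tuft-gated cells was VApcMinL replicate 2, with 28 cells. There Ascl2 was 130, Lgr5 85.4 and Smoc2 149 CPM, each above its level in adenoma-gated cells of the same library. Ascl2 in the smaller tuft gates was 15.7 (7 cells), 220 (14 cells) and 118 (18 cells). The adenoma genes were not alike there: Nkd1 was 215 CPM in that tuft gate, but Notum was 6.33, below its B-lineage mean of 13.4. In the Paneth gate of the libraries with at least 20 such cells, Notum was 50.5 to 139 and Lef1 4.45 to 9.62 CPM. UMIs of adenoma genes were thus counted in the Paneth gate, as they were outside the epithelium (Notum 62.4 CPM in the mast gate of 1 library). Whether single Paneth-gated cells express these genes was not tested. The part of such cells in the Paneth levels of Lgr4, Lgr5 and Ascl2 was not tested either.

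**Figure D3:**
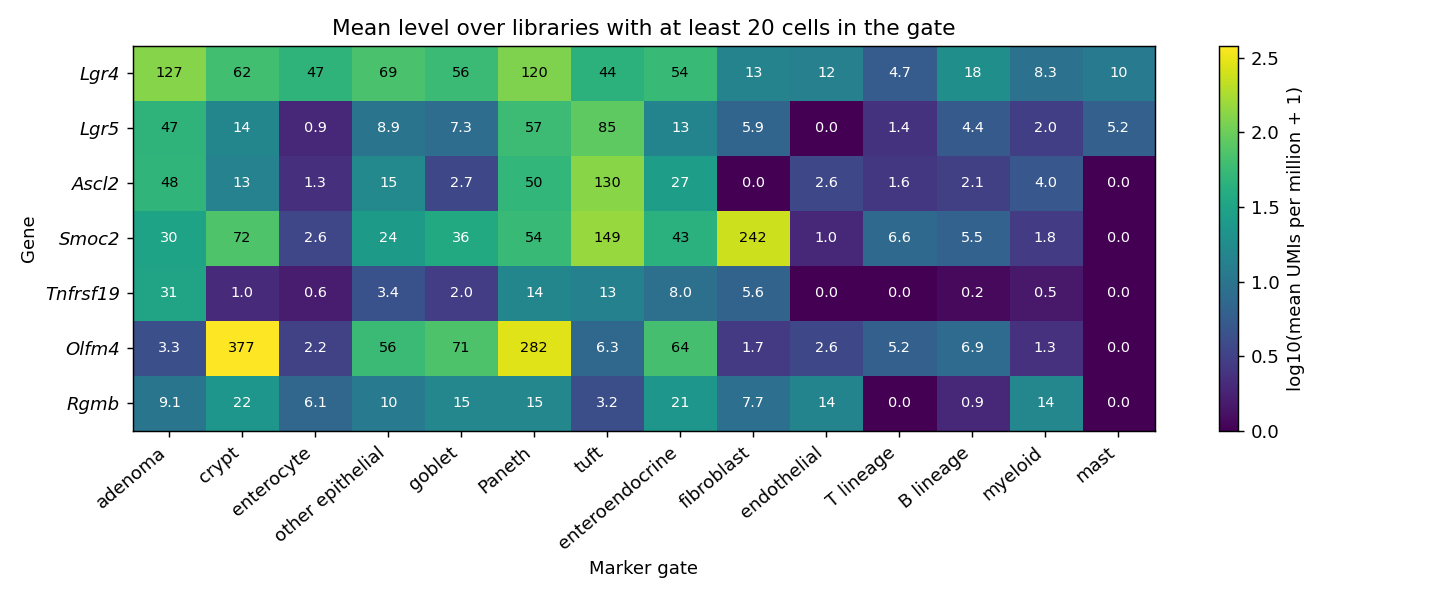
Mean level of each gene (printed, CPM; color, log10 of the level plus 1) in 14 marker gates, over the libraries with at least 20 cells in the gate. Smoc2 is highest in fibroblasts, Olfm4 in crypt and Paneth gates, and Tnfrsf19 in adenoma cells; tuft, enteroendocrine and mast columns rest on 1 library each.

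The genes most like each member were ranked by Pearson r of log2 levels over 45 library-by-gate sums, which share libraries and depth, so r is a description. They were Tnk1 for Lgr4 (r = 0.92), Nipal2 for Lgr5 (0.80), Tmem266 for Ascl2 (0.84), Steap2 for Smoc2 (0.88), Hebp2 for Tnfrsf19 (0.87), Aqp4 for Olfm4 (0.78) and Gas6 for Rgmb (0.89). No member was another's nearest gene. The closest pair of members was Lgr4 and Lgr5 (r = 0.74), and Lgr4 ranked 37th among 11827 genes by likeness to Lgr5.

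The genotype comparison asked whether the 7 genes differ in adenoma-gated cells with the Lef1 fl/fl and Villin-Cre alleles. None was called, with the kit as a block and 2 libraries per group. Of 12816 genes tested, 0 were called (0% at an adjusted p under 0.05, 31 genes, or 0.242%, at an unadjusted p under 0.05, and 2 genes by DESeq2). The members at an unadjusted p under 0.05 were 0 as well. Lgr4 differed least, by 0.00 ± 0.19 on the log2 scale (SE, edgeR adjusted p = 1), and Lgr5 had the widest error, 0.48 ± 1.08. Ascl2 differed by 0.27 ± 0.37, Smoc2 by 0.15 ± 0.23, Tnfrsf19 by 0.17 ± 0.83, Olfm4 by -0.55 ± 0.90 and Rgmb by -0.10 ± 0.38, each with an edgeR adjusted p of 1.

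The kit pairs gave opposite directions for every gene. In kit 2 Lgr5 was 12.7 CPM in ApcMin and 66.6 in VApcMinL, a log2 difference of 2.38, while in kit 3 it was 78.2 in ApcMin and 30.1 in VApcMinL, a difference of -1.37. Tnfrsf19 gave 1.7 in kit 2 and -1.32 in kit 3. Ascl2 moved in the other sense, with -0.25 in kit 2 and 0.80 in kit 3. With 1 library per genotype in a kit, these differences have no replicate check. Lef1 was itself higher in VApcMinL than in ApcMin in kit 2 (27.8 against 9.40) and lower in kit 3 (22.3 against 34.6), and the sex of the cells differed between the libraries as described above. Their part in these differences was not tested.

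**Figure D4:**
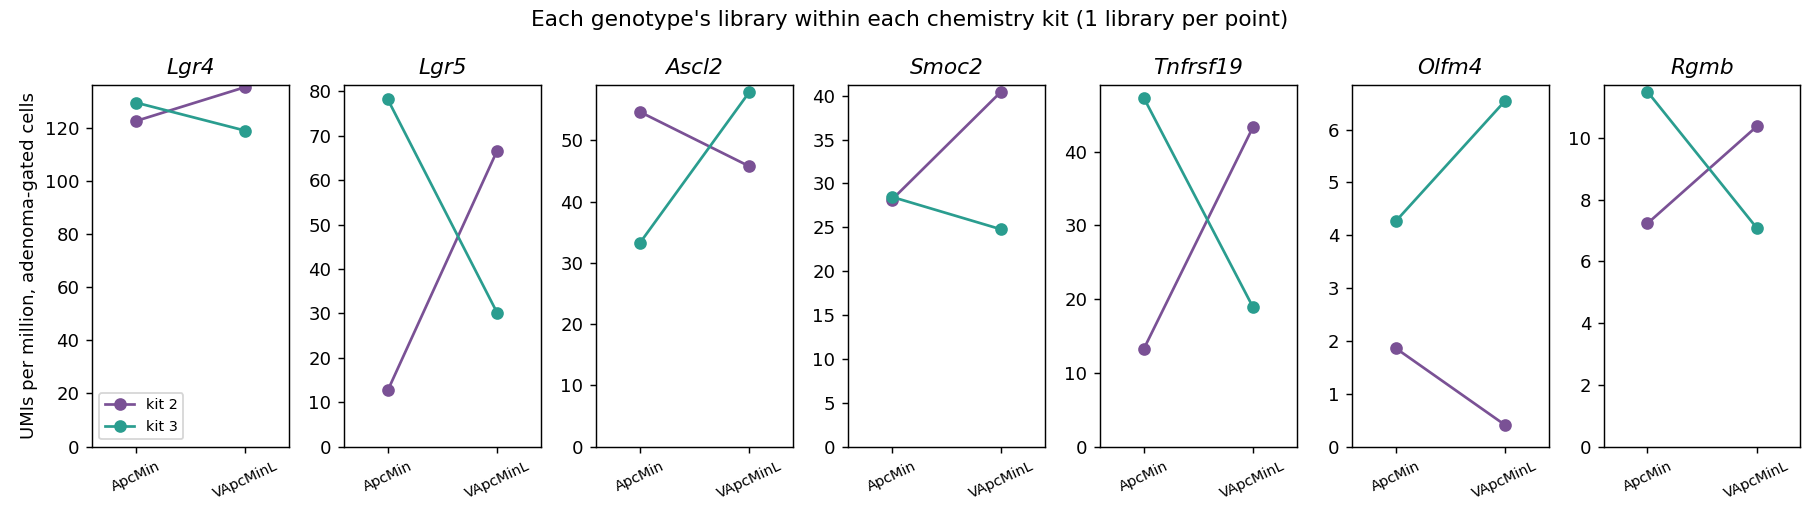
Level of each gene in adenoma-gated cells (CPM, axis from 0) in the ApcMin and the VApcMinL library of kit 2 and of kit 3, with 1 library per point. The 2 lines slope in opposite directions in each of the 7 panels, most steeply for Lgr5 and Tnfrsf19.

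In the library labelled VApcMinL replicate 2, cells of both sexes allow a comparison inside 1 library, without replicates. Lgr5 was 31.0 CPM in the 580 adenoma-gated cells that held Xist but nothing Y-linked and 30.3 in the 1248 with a Y-linked UMI and no Xist. Tnfrsf19 was 18.9 and 18, Lgr4 115 and 124, and Ascl2 50.9 and 61.9 CPM, respectively. Olfm4 was 6.72 and 2.79 CPM. The difference of the adenoma-crypt contrast between the genotypes was called for 0 of 12699 genes (0%; 136 genes, or 1.07%, at an unadjusted p under 0.05, and 0 by DESeq2), and for none of the 7.

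Dividing adenoma-gated cells, those with at least 10 UMIs of proliferation genes per 10000, were set beside the others, as a description. Lgr4 was lower in dividing cells in every library, at 110, 120, 119 and 110 CPM against 131, 147, 141 and 129. Lgr5 was 13.6, 59.3, 66.2 and 27.5 in dividing against 12, 72.1, 92.4 and 33.2 in other cells. Ascl2 in dividing cells was 58.8, 45.9, 33.6 and 61.8 against 51.8, 45.7, 32.8 and 53.3. Lgr5 had no common direction, and Ascl2 was slightly above in dividing cells in all 4 libraries.

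A further comparison asked which of the genes are higher in the cells that hold Lgr5. Cells were called Lgr5-positive by a UMI after thinning to 2000 UMIs, which gave 15, 68, 42 and 141 adenoma-gated cells and only 9, 4, 5 and 15 crypt-gated cells. A negative cell may still express Lgr5. Lgr5 itself was left out. Among adenoma-gated cells Smoc2 and Tnfrsf19 were higher in Lgr5-positive cells, while 4.9% of 12504 genes were called and 2.46% were called higher and 2.45% lower (307 and 306 genes, or 349 and 173 when scaled to total UMIs). Smoc2 was 76.1, 76.5, 40.6 and 45.4 CPM in positive and 26.9, 35.8, 27.0 and 23.5 in negative cells. It was higher in all 4 libraries, with a log2 difference of 0.93 ± 0.13 (SE, n = 4, edgeR adjusted p = 0.0011).

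Tnfrsf19 was 12.2, 70.0, 65.5 and 32.0 CPM in positive and 13.2, 39.9, 45.1 and 18.1 in negative adenoma-gated cells. It was higher in 3 of 4 libraries, by 0.65 ± 0.12 (SE, n = 4, edgeR adjusted p = 0.00968), and lost the call without VApcMinL replicate 1 (adjusted p = 0.103) or VApcMinL replicate 2 (adjusted p = 0.0516). Over 15 alternative settings Tnfrsf19 was called in 10, and the adjusted p ran up to 0.365. Rgmb differed by 0.80 ± 0.25 (adjusted p = 0.0782) and was above in all 4 libraries without passing the test. Olfm4 differed by 1.54 ± 0.46 (adjusted p = 0.0641) and rested on VApcMinL replicate 2, where it was 28.1 in positive and 5.22 in negative cells. Without that library the difference was -1.02 (adjusted p = 0.548), and without ApcMin replicate 2 it was 2.19 (adjusted p = 1.5e-05). Ascl2 (-0.27 ± 0.14, adjusted p = 0.323) and Lgr4 (-0.03 ± 0.08, adjusted p = 0.94, with the sign turned at 0.01 when scaled to total UMIs) were not called.

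Among crypt-gated cells the Lgr5-positive cells were few, and sums rest on 50477 to 240449 UMIs. In this comparison 5.46% of 10466 genes were called, 1.34% higher and 4.12% lower (140 and 431 genes, or 198 and 275 when scaled to total UMIs, with a median shift of 0.15). Ascl2 (1.72 ± 0.44, edgeR adjusted p = 0.00384), Smoc2 (0.99 ± 0.24, adjusted p = 0.00159), Tnfrsf19 (3.29 ± 0.94, adjusted p = 0.0135), Rgmb (1.33 ± 0.35, adjusted p = 0.00496) and Olfm4 (2.39 ± 0.22) were called higher, and Lgr4 (0.08 ± 0.29, adjusted p = 0.94) was not. Olfm4 was 34.9, 0, 3244 and 5120 CPM in positive against 14.2, 3.25, 528 and 732 in negative cells. The kit 3 libraries carried this result, since the 0 of VApcMinL replicate 1 comes from 4 cells and allows up to 59.4 CPM. Within-library log2 differences of Olfm4 were 1.26, -2.59, 2.62 and 2.81, far wider than its SE. In this comparison the test took the spread as shared over genes. Its SEs and p-values thus do not measure the spread of each single gene between libraries. Of the 5 genes, DESeq2 did not call Ascl2 (adjusted p = 0.0708) or Rgmb (adjusted p = 0.187) and gave no adjusted p for Tnfrsf19. Smoc2 was called in 12 of 14 alternative settings, with an adjusted p of up to 0.656. Without VApcMinL replicate 2, Ascl2 (1.12, adjusted p = 0.494) and Rgmb (0.81, adjusted p = 0.591) were not called. Rgmb was not called without ApcMin replicate 2 either (1.24, adjusted p = 0.0955), and Tnfrsf19 was not called without ApcMin replicate 1 (3.43, adjusted p = 0.0592) or ApcMin replicate 2 (2.93, adjusted p = 0.171). Whether the difference between Lgr5-positive and -negative cells is itself unlike in adenoma and crypt cells was not tested.

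**Figure D5:**
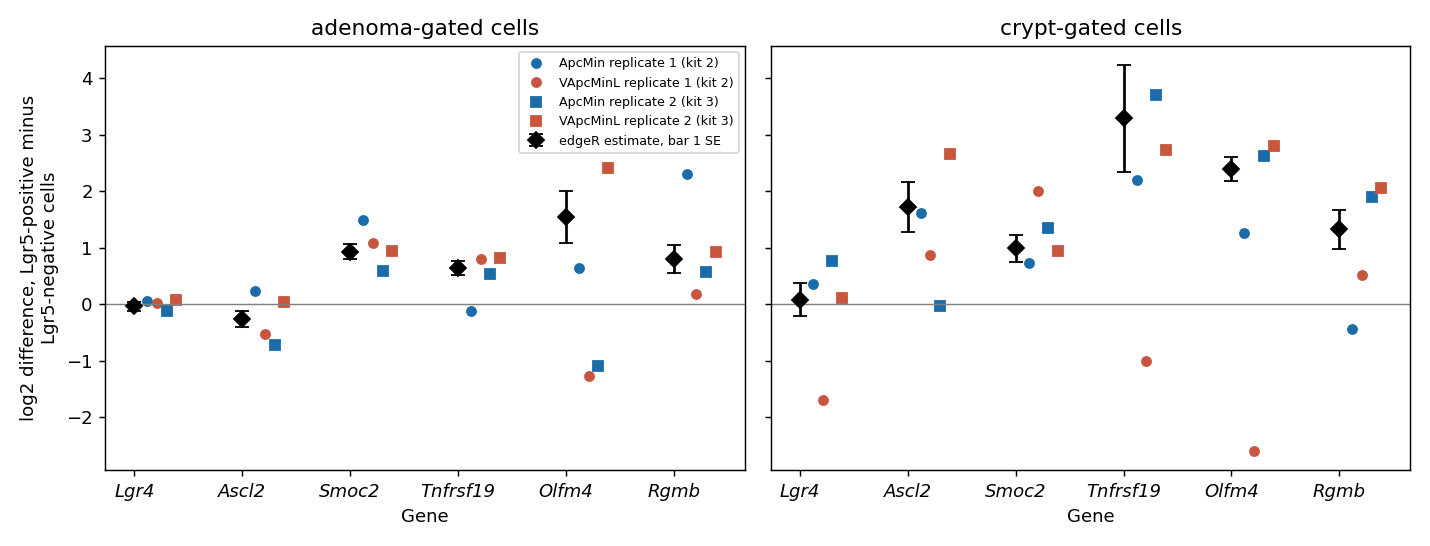
Log2 difference of each gene between Lgr5-positive and Lgr5-negative cells in adenoma-gated (left) and crypt-gated cells (right); diamonds and bars are the edgeR estimate and 1 SE, small points the 4 libraries from unscaled sums. Smoc2 lies above 0 in all libraries in both panels, and Ascl2 lies near 0 on the left.

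Other genes of the crypt base program, from lists chosen by name, also moved in both directions between adenoma-gated and crypt-gated cells. Of 35 other crypt base signature genes, 34 were tested, 22 were higher and 8 lower, beside 31.5% higher and 25.2% lower among all genes tested, and the median log2 difference was 0.92 against 0.05 over all genes. Fstl1, a secreted follistatin-like protein, rose by 3.41 ± 0.32 (edgeR adjusted p = 5.84e-05). Gkn3, a gastrokine, rose by 3.01 ± 0.35 (adjusted p = 0.000191). Aqp4, a water channel, fell by 5.43 ± 0.24 on the log2 scale (adjusted p = 2.4e-06), and Vdr, the vitamin D receptor, fell by 4.46 ± 0.11 (adjusted p = 1.03e-06). Aqp4 was 0.373, 0.0824, 0.852 and 1.25 CPM in adenoma-gated and 28.5, 11.3, 26.6 and 40.1 in crypt-gated cells, with no kit gap like that of Olfm4.

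Of 11 R-spondin and Wnt receptor genes, 8 were tested, 5 were higher and 2 lower, with a median log2 difference of 1.18. Rnf43 and Znrf3 are also part of the crypt base list above. Among all genes tested 31.5% were higher and 25.2% lower, and the share of lower genes was close to the latter. The ubiquitin ligases that Lgr4 and Lgr5 hold back were both among the higher genes: Znrf3 rose by 2.18 ± 0.27 (edgeR adjusted p = 0.000299) and Rnf43 by 1.88 ± 0.13 (adjusted p = 1.34e-05). Rnf43 was 59.7, 77.0, 113 and 106 CPM in adenoma-gated and 17, 14.5, 23.4 and 33.1 in crypt-gated cells. The Wnt receptor Fzd5 fell by 2.96 ± 0.19 (adjusted p = 1.16e-05). Lgr6, the third R-spondin receptor, had 2, 14, 9 and 90 UMIs in adenoma-gated and 0 in crypt-gated cells, so over the 4 libraries it was at least 8.85-fold higher, taking 3 counts over the group as the floor.

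The 10 stem genes that the study examined are all part of the crypt base list counted above, and all were tested. Of these, 6 were higher and 2 lower, beside 31.5% higher and 25.2% lower among all genes tested. The median log2 difference was 0.87, and this list is not independent evidence of a direction. The 2 lower genes were Lrig1 (-0.90 ± 0.13, edgeR adjusted p = 0.00053) and Krt19 (-0.90 ± 0.14, adjusted p = 0.00107), each lower in all 4 libraries. Krt19 is also a marker of the epithelial gate. Mex3a, an RNA-binding protein of slowly cycling stem cells, rose by 2.76 ± 0.44 (edgeR adjusted p = 0.00101), and Ephb3, an ephrin receptor that positions crypt cells, by 2.22 ± 0.21 (adjusted p = 7.03e-05). Cd24a, a surface glycoprotein, rose by 1.71 ± 0.20 (adjusted p = 0.000208) and Msi1, an RNA-binding stem cell protein, by 1.44 ± 0.16 (adjusted p = 0.000132). Of 8 relatives of the members, 4 were tested, and Lgr6 (also in the receptor list) and Olfm2 were called higher. Olfm2, of the same olfactomedin family as Olfm4, had 3, 2, 68 and 152 UMIs in adenoma-gated and 1, 0, 0 and 0 in crypt-gated cells.

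In Lgr5-positive adenoma-gated cells, 8 of 33 tested crypt base signature genes were higher and 1 lower, beside 2.46% and 2.45% of all genes, with a median log2 difference of 0.34 against -0.02 over all genes. Lrig1, a growth factor receptor inhibitor of stem cells, was higher by 0.70 ± 0.18 (edgeR adjusted p = 0.0366), and Sox9, a crypt transcription factor, by 0.62 ± 0.10 (adjusted p = 0.00262). Znrf3 was higher by 0.57 ± 0.11 (adjusted p = 0.0128) and Phlda1 by 0.48 ± 0.09 (adjusted p = 0.00916). In Lgr5-positive crypt-gated cells, 17 of 33 were higher and 1 lower, beside 1.34% higher and 4.12% lower among all genes tested. The calls over all genes fell from 571 to 161 by DESeq2, 39 with cells thinned to 2000 UMIs, and 29 and 292 within kit 2 and kit 3 alone. Gkn3 (2.31 ± 0.20) and Soat1 (2.36 ± 0.28) were among the genes called higher, in all 4 libraries. Their SEs have the limit given above for this comparison.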

How the data were processed

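Single-cell RNA sequencing (10x Genomics 3′ kits) of 4 adenoma libraries was analysed. The authors deposited raw UMI counts per gene and barcode, not normalized and with no cells selected. The study's methods name Cell Ranger 2.1.1 with its prebuilt mm10 reference, and Seurat 3.1.1. In kit 3 the matrix header gives a later Cell Ranger release.

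Barcodes with at least 2000 UMIs and at most 20% mitochondrial UMIs were kept, and only genes whose identifier is found in every library. The highest Scrublet scores (scanpy 1.11.5), 0.8% per 1000 cells, were removed as doublets (276 cells). Gates used marker sums per 10000 UMIs. The adenoma gate needed 2 with at least 2 genes, the crypt gate 15 with at least 3 genes, and the enterocyte gate 160. The members, lists and gates were chosen with earlier results of these data known. Gate thresholds were set on these data.

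UMIs were summed per library and gate, since cells are not replicates, and tested with edgeR 4.0.16 (quasi-likelihood, TMM, its expression filter) in R 4.3.3, with the library, or for genotype the kit, as a block. The 0.05 threshold applies to Benjamini-Hochberg adjusted p over all genes that passed the filter, gate markers included. Gate markers were left out of the counts of genes tested and called, but not of the list counts, which hold Krt19. DESeq2 1.42.0 was an alternative. Within-library log2 differences used a prior count of 2. Intervals and limits of 3 counts cover counting error only. Replicate numbers mark the kit in the labels, so they pair libraries, and deviations from group means correlated at r = 0.15 across 12915 genes. On simulated counts (dispersion 0.05, 200 genes changed by log2 1.5), the test recovered 186 with 5 false calls for adenoma against crypt (12797 genes run). For genotype it recovered 146 with 4 false calls (12915 genes run). The simulation gave every gene the same dispersion and had no library or kit effects. It thus does not show what could be detected at the real spread, where the genotype SE of Lgr5 was 1.08.

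Named genes are the 7 members, and from each list at most 4 called genes with the largest change and the same direction in all 4 libraries. Olfm2, Aqp4 and Soat1 counts, tuft and Paneth checks and the scaling and single-kit settings were added after values were seen. So were the lower stem genes Lrig1 and Krt19 and the genes outside the 7 that were compared between kits. Gene positions are GENCODE M21 (GRCm38), and start regions are from RefSeq.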

Additional observations from a re-analysis of the deposited data

Results flagged for a closer look

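All 7 genes were flagged because the VApcMinL minus ApcMin difference in adenoma-gated cells went in opposite directions in the 2 kits, each with 1 library per genotype. This was not particular to the 7 genes. Sox9 and Cd24a also turned between the kits, while Mex3a and Ephb3 were lower in VApcMinL in both. The share of all genes that turned was not counted. The difference between kits was not tested by these values. The kit 2 minus kit 3 gap in log2 difference was 3.75 for Lgr5 (2.38 and -1.37), 3.02 for Tnfrsf19 (1.7 and -1.32) and 1.21 for Rgmb (0.51 and -0.69). It was 0.72 for Smoc2 (0.52 and -0.20) and 0.27 for Lgr4 (0.14 and -0.12). It was negative, at -1.05, for Ascl2 (-0.25 and 0.80) and at -2.44 for Olfm4 (-1.83 and 0.61).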

How the results depend on the processing

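The 6 called genes of adenoma against crypt kept direction and call under every alternative run. The 7195 calls there were 3775 within kit 2, 4561 with no replicate block and 2855 with cells thinned to 2000 UMIs, and the 10204 calls against enterocytes were 6770 when thinned. The genotype count of 0 became 2 (DESeq2) or 1 (no expression filter). The 613 calls by Lgr5 status in adenoma cells were 238 (DESeq2), 155 and 20 (within kit 2 and kit 3), 1415 (no filter), 52 (thinned), and 120 to 498 with 1 library left out. The 571 in crypt cells were 161, 29 and 292 (DESeq2, kit 2, kit 3), 39 (thinned), and 228 to 432 with 1 library left out. The contrast of contrasts gave 0 to 4 calls with 1 library left out. Genotype fits with 1 library left out have no residual degrees of freedom and give values only. Without the kit as replicate block, genotype gave 0 calls, and Olfm4 turned to 0.22; the block ended no other call there.

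Signs turned for values near 0, and also for larger ones by genotype and by Lgr5 status, and the cause was not tested. With 1 library left out, the genotype difference crossed 0 for every gene. It ran from -1.30 to 2.30 for Lgr5, -1.25 to 1.62 for Tnfrsf19, -2.10 to 0.68 for Olfm4 and -0.35 to 0.87 for Ascl2. The range was -0.62 to 0.43 for Rgmb, -0.13 to 0.43 for Smoc2 and -0.053 to 0.054 for Lgr4. Olfm4 against enterocytes was 0.66 (total UMIs), 0.24 (kit 3), 0.0078 (no filter), 0.032 (floor of 5000 UMIs), 0.34 (doublets kept), 0.10 (gate of Notum, Wif1 and Nkd1), and -0.45 to 0.10 with 1 library left out. Rgmb against enterocytes was 0.57 (total UMIs), 0.22 (kit 2), 0.24 (thinned), and -0.31 to 0.056. Lgr4 by genotype was -0.0012 (DESeq2), -0.0084 (no filter), -0.0004 (10% mitochondrial limit), -0.0009 (floor of 5000) and -0.019 (doubled gate). By Lgr5 status in adenoma cells, Lgr4 was 0.0030 (DESeq2), 0.011 (total UMIs), 0.0091 (kit 2), and -0.061 to 0.014. Olfm4 was -0.28 (kit 2), and -1.02 to 2.19, and Ascl2 0.23 (thinned). In crypt cells, Lgr4 was -0.12 (kit 2), -0.11 (10% limit), and -0.045 to 0.32, and Rgmb -0.35 (kit 2). The Olfm4 share minus that of enterocytes was -0.0039 percentage points with the doubled gate, and -0.13 to 0.13 with 1 library left out. Among the other values for single genes, 402 kept direction and side of the threshold, 21 lost the call and 16 gained it. A further 26, from genotype fits with 1 library left out, changed sign or moved by at least 1 SE. Sums over the 4 to 15 Lgr5-positive crypt cells of a library rest on 50477 to 240449 UMIs, which limits what can be detected there.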

Other observations

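Adenoma-gated cells with a UMI of Msx1, a homeobox gene, after thinning to 2000 UMIs numbered 117, 28, 27 and 674. Tnfrsf19 was 16.1, 64.9, 68.9 and 22.6 CPM in them and 12.4, 42.4, 45.1 and 17.4 in the other adenoma-gated cells, above in all 4 libraries. Lgr5 was 10.0, 97.3, 69.6 and 30.9 against 13.4, 65.3, 79.1 and 29.8, with no common direction. Lgr4 was below in all 4 libraries, at 112, 116, 120 and 116 against 125, 136, 131 and 120. These values are descriptions, and no test was run.

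Olfm3, a relative of Olfm4, had 0, 0, 78 and 61 UMIs in adenoma-gated cells and 0 in crypt- and enterocyte-gated cells of every library, so it was counted in kit 3 alone.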
